A study of Mus musculus with 13 samples.

Results

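The deposited table held 9345 autosomal enhancer regions (class Enh) placed far from a transcription start site (TSS) and lying wholly inside the body of a gene. They were found by coordinates, among 18913 autosomal distal Enh regions and 240814 regions of all classes. Of the rest of the distal class, 9493 regions shared no base with a gene body and 75 lay across the edge of one. Among the 9345 regions, 9299 had exactly 1 host gene, 45 had 2 and 1 lay inside 22 overlapping bodies of the clustered protocadherin gamma genes. After the regions with several hosts, 4 regions above 5 RPKM and 3 below a mean of 0.1 RPKM were set apart, 9292 regions in 2806 host genes were analysed. RPKM is the read count scaled by the length of the region and by the reads of the column.

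The study used neural stem and progenitor cells grown as neurospheres from the embryonic mouse forebrain (cortices with ganglionic eminences, E14.5), at passage 5 and day 3 of culture. The cells were Kat7 lox/lox NesCre T/+, in which Cre made from a nestin transgene deletes Kat7, or Kat7 +/+ NesCre T/+, so both genotypes carried Cre. ChIP-seq libraries were made with an antibody to acetylated lysine 14 of histone H3 (H3K14ac, 4 Kat7-intact and 3 Kat7-deleted), with an antibody to KAT7 (also called HBO1, 3 intact and 1 deleted), or with IgG (1 for each experiment). The table carries 1 merged H3K14ac column of 141734087 reads and 1 merged HBO1 column of 134111848 reads, called KAT7 below, and the sources used here do not say which of the 13 libraries went into each. There were therefore no replicate values and no comparison of genotypes: every interval below is a 95% counting interval, which covers counting error only, and no IgG level of these regions was analysed here.

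Distal enhancers are DNA elements that act on promoters over a distance, and many of them lie in introns, often of long genes. KAT7 is the catalytic subunit of acetyltransferase complexes with BRPF or JADE scaffold proteins and acetylates lysine 14 of histone H3. H3K14ac is found at promoters, enhancers and transcribed genes.

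The host genes were long, with a median of 101249 bases against 16744 bases for all autosomal gene bodies, and they made up 14.1% of those bodies. A single region lay in each of 1177 hosts, whereas 202 hosts held 10 or more and together 2917 regions. The middle of a region lay 12080 to 2227904 bases from the start of its host, with a median of 85526 bases. By length, 3685 regions (39.7%) were in the band up to 160 bases and had one and the same length, 634 had above 160 and up to 700 bases, and 4973 were above 700 bases, the longest being 14187. The uniform short regions are called short below, and the next band the middle band. Outside genes the share of short regions was 46.4%. At the upper band edge the values ran on: the 118 regions above 650 and up to 700 bases had median levels of 0.431 (H3K14ac) and 0.459 RPKM (KAT7), and the 115 above 700 and up to 750 bases had 0.445 and 0.466 RPKM.

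Some regions contained an annotated transcript start, although the class is named as far from a TSS. RefSeq placed a start in 308 of the 9292 regions, in 220 of them a start of the host gene itself and in 88 only that of another gene. For 172 regions the whole window from 250 bases before to 50 bases after such a start lay inside the region, which gave 197 windows. The 7 windows below are shown because their regions lay among the highest or the lowest of these in one of the columns, and they were chosen after those levels were seen. CpG dinucleotides are in capitals, each sequence runs 5′ to 3′ on the strand of its gene, and sequences and coordinates are from RefSeq on GRCm38.p6, the assembly of the mm10 build.
Urgcp: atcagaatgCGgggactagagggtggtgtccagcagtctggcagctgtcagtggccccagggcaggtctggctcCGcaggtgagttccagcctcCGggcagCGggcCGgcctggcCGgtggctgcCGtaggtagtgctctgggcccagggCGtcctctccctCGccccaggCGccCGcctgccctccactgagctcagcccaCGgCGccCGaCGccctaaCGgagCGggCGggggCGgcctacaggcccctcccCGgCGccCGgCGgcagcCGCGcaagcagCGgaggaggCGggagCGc
Ptpa: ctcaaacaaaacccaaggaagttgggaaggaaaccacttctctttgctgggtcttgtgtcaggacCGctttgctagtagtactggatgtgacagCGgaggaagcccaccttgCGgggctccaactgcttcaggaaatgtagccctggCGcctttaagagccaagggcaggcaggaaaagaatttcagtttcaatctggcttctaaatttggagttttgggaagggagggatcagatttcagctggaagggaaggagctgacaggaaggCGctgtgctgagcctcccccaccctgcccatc
Septin9: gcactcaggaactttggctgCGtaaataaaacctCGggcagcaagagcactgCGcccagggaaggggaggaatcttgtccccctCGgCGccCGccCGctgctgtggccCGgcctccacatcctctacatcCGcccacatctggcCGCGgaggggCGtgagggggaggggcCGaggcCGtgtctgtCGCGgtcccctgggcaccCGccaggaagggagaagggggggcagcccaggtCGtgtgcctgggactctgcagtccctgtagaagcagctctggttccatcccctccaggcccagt
Pde4b: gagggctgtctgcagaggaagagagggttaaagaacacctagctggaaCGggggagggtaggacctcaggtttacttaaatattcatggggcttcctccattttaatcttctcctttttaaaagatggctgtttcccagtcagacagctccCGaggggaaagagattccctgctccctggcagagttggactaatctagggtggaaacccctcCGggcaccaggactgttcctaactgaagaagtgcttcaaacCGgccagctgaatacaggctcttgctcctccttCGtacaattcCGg
Hnrnpf: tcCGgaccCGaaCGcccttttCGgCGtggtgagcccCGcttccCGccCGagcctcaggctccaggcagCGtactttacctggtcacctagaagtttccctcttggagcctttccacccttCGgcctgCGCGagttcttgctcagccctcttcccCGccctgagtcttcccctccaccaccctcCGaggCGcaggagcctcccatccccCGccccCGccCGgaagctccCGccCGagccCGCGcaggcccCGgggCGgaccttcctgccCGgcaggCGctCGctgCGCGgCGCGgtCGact
Cacna1d: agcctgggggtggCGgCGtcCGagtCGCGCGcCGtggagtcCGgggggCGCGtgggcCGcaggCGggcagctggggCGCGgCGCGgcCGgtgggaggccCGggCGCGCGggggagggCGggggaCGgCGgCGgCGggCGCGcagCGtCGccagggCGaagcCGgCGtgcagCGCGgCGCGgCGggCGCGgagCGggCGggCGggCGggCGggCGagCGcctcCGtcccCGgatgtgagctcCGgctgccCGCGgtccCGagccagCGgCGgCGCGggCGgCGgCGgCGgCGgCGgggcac
Anks1b: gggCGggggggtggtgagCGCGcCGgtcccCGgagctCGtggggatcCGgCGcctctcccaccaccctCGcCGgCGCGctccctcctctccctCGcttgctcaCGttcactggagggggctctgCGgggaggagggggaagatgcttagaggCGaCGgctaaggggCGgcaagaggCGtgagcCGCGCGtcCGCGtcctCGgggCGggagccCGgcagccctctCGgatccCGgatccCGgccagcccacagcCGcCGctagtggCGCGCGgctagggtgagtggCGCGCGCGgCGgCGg
The region of Urgcp (EN32095, chr11:5740772-5741459, 688 bases) had 98 H3K14ac reads and 1.01 RPKM (0.817 to 1.23), and 75 KAT7 reads and 0.814 RPKM (0.640 to 1.02). Its window, chr11:5741127-5741426 on the minus strand, holds 28 CpGs. The region of Ptpa, which encodes an activator of protein phosphatase 2A (EN21206, chr2:30440226-30443176), was high in H3K14ac alone, at 0.758 RPKM (0.677 to 0.846) against 0.490 (0.424 to 0.564) in the KAT7 column, and its window, chr2:30441603-30441902 on the plus strand, holds 5 CpGs. The region of Septin9, a GTP-binding cytoskeletal protein (EN26441, chr11:117265583-117267747), had 0.747 and 0.624 RPKM, with 18 CpGs in the window chr11:117265996-117266295 on the plus strand.

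At the start inside Pde4b, a cyclic AMP phosphodiesterase (EN31216, chr4:102589516-102590190; window chr4:102589593-102589892, plus strand, 6 CpGs), both columns were high, at 0.691 RPKM (H3K14ac) and 0.797 RPKM (KAT7). The region of Hnrnpf, an RNA-binding splicing factor (EN29634, chr6:117916687-117918320; window chr6:117917044-117917343, plus strand, 32 CpGs), had 0.423 RPKM in the H3K14ac column and 0.685 RPKM in the KAT7 column. The lowest H3K14ac levels of the group were in Cacna1d, an L-type calcium channel gene, and Anks1b. The Cacna1d region (EN32029, chr14:30353297-30353978; window chr14:30353437-30353736, minus strand, 63 CpGs and 87.3% G or C) had 9 H3K14ac reads, 0.0932 RPKM (0.0426 to 0.177), and 16 KAT7 reads, 0.175 RPKM. The Anks1b region (EN27016, chr10:90828614-90829770; window chr10:90829404-90829703, plus strand, 41 CpGs) had 26 H3K14ac reads, 0.159 RPKM (0.104 to 0.233), but 62 KAT7 reads, 0.400 RPKM (0.307 to 0.513). Windows rich in CpG thus occurred with the highest as well as the lowest H3K14ac values of this group.

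The 197 windows held a median of 12 CpGs and 58.3% G or C, against 7 CpGs and 52.7% over all 32817 RefSeq windows of the same length. On either strand, the AP-1 letters TGANTCA occurred in 9.64% of them against 7.81% of all windows, the nuclear factor I (NFI) letters TTGGC in 50.3% against 46.7%, the SOX letters ACAAT in 29.4% against 31.0% and ACAAAG in 25.4% against 18.7%, and the E-box CANNTG in 67.5% against 72.3%. The motifs were searched separately and their matches can share bases. Over the 166 regions above 700 bases with such a window, Spearman's rho of CpG count was -0.22 with H3K14ac RPKM and -0.10 with KAT7 RPKM, a description over regions that share both libraries' pools and their own base makeup.

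**Figure D1:**
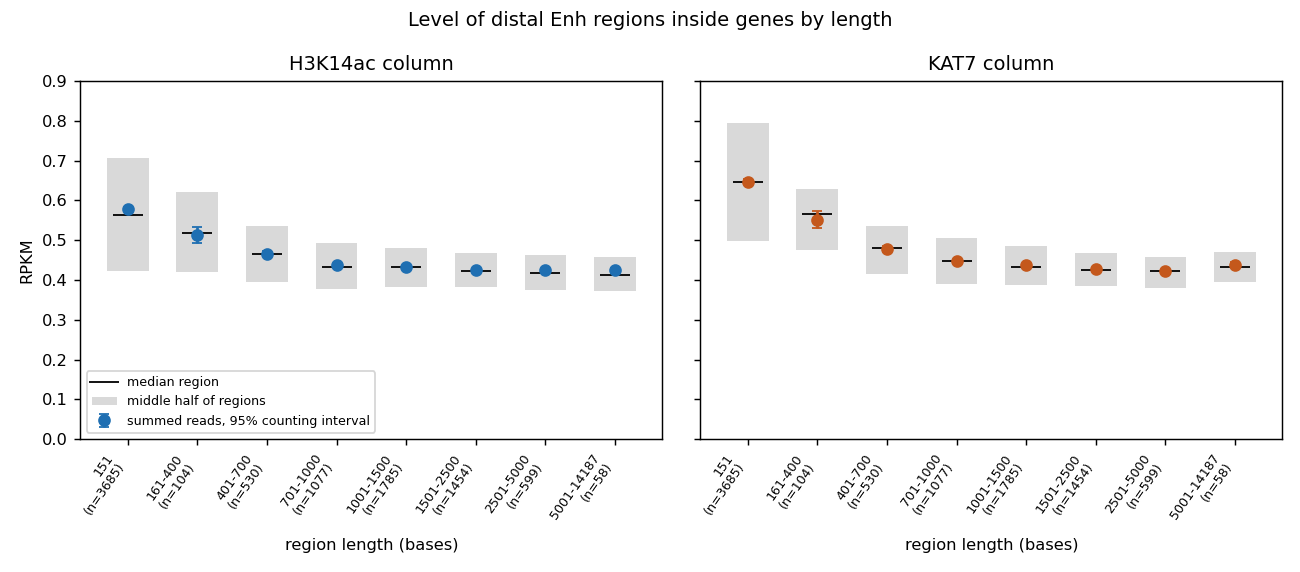
RPKM (vertical axis) of the 9292 regions in 8 length bins (horizontal axis, bases), H3K14ac column left and KAT7 column right. Points are summed reads over summed length with 95% counting intervals, black dashes the median region and grey bars the lower to upper quartile; levels ran from 0.579 and 0.647 RPKM in the short regions to 0.425 and 0.439 RPKM in the longest bin.

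Short regions carried more signal per base than long ones in both columns. Summed over all regions the level was 0.439 RPKM (0.438 to 0.440) for H3K14ac and 0.446 RPKM (0.445 to 0.447) for KAT7. In the short regions it was 0.579 RPKM (0.574 to 0.584) for H3K14ac and 0.647 RPKM (0.641 to 0.653) for KAT7. In the middle band it was 0.470 and 0.486 RPKM, and above 700 bases 0.429 (0.427 to 0.430) and 0.431 RPKM (0.430 to 0.432). The level up to 160 bases was 1.35 times that above 700 bases for H3K14ac (1.34 to 1.36) and 1.50 times for KAT7 (1.49 to 1.52). How a read that crosses an edge was counted is not given in the sources used here, and if it counts in full a short region takes more reads per base of its own. With 75 bases added to each length the ratio was 0.941 for H3K14ac, the opposite direction, and 1.05 for KAT7, and with 200 bases added it was 0.649 and 0.721. The direction of the length difference therefore depended on the assumed reach of a read.

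A short region held a median of 12 H3K14ac reads (quartiles 9 and 15) and 13 KAT7 reads (10 and 16), against 83 and 80 reads in a region above 700 bases. The variance of reads over the short regions was 1.78 times the mean for H3K14ac and 1.37 times for KAT7, where pure counting error gives equality. Spearman's rho between the columns was 0.19 over the 3685 short regions and 0.35 over the 4973 above 700 bases, a description over regions counted from the same 2 pools. By chromosome the level ran from 0.426 RPKM on chromosome 5 to 0.456 on chromosome 10 for H3K14ac, and from 0.435 on chromosome 17 to 0.458 on chromosome 12 for KAT7.

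Against the gene that holds them, the regions stood slightly higher. This comparison used the 6768 regions in 2238 hosts whose bodies overlapped no other gene body in the table, which leaves out bases that several bodies share. The regions had 1.14 times the H3K14ac level of their own host body (1.13 to 1.14) and 1.14 times its KAT7 level (1.14 to 1.14). The excess was 1.49 (H3K14ac) and 1.66 times (KAT7) in the short regions, 1.21 and 1.23 times in the middle band and 1.11 and 1.10 times above 700 bases. With 75 bases added to each length, the short regions had an H3K14ac interval that included the host level, at 0.993 times (0.982 to 1.004), and stayed above them in KAT7, at 1.11 times (1.09 to 1.12). The regions above 700 bases kept 1.06 times in H3K14ac and 1.05 times in KAT7 under that addition, and had 0.986 and 0.979 times with 200 bases added. The excess over the host was thus smaller than what an assumed reach of 200 bases moved.

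**Figure D2:**
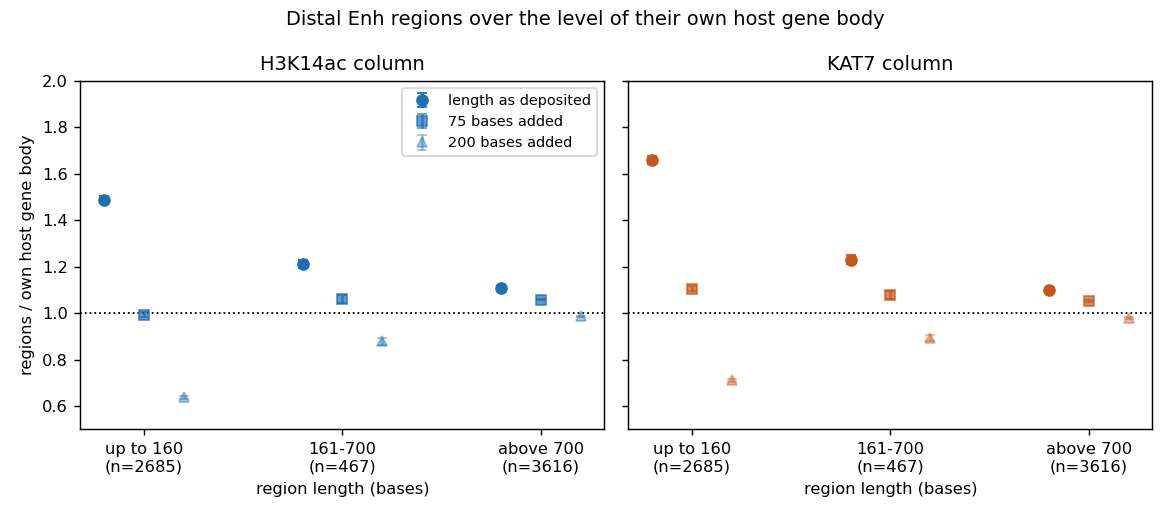
Ratio of the summed regions to the level of their own host gene body (vertical axis) in the 3 length bands (horizontal axis), H3K14ac left and KAT7 right, with 95% counting intervals, for the deposited length and with 75 or 200 bases added; the dotted line is equality. In the short regions the H3K14ac ratio went from 1.49 to 0.993 and 0.638, and above 700 bases from 1.11 to 1.06 and 0.986.

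The KAT7 excess of the short regions also appeared in short Enh regions near a start. The latter, 1574 regions inside genes, had 1.12 times their host's KAT7 level with 75 bases added (1.10 to 1.13) and 0.973 times its H3K14ac level (0.959 to 0.987). Regions of the class named IS in the table that lay far from a start, inside genes and up to 160 bases, had 0.983 times in KAT7 (0.976 to 0.989) and 0.992 times in H3K14ac with the same addition. At the deposited length these distal IS regions had 1.60 times in KAT7 (1.59 to 1.62) and 1.62 times in H3K14ac, against 1.66 (1.64 to 1.68) and 1.49 in the short distal Enh regions, so that in H3K14ac the IS regions were higher. They averaged 119.6 bases against 151 for the Enh regions, so the same addition lowered the IS ratios more, and the size of the KAT7 contrast depends in part on that. IS regions near a start in that band had 1.11 times in KAT7 (1.10 to 1.11) and 1.15 times in H3K14ac with 75 bases added. The KAT7 intervals of the distal Enh and the distal IS regions did not overlap at either length, whereas those of the distal and near Enh regions did.

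Most single regions had a counting interval that included the level of their host. Above 700 bases, 830 of 3616 regions (23.0%) had an H3K14ac interval wholly above the host level, against 24.9% of all Enh and IS regions inside genes of that length, and 98 (2.71%) were wholly below, against 3.12%. For KAT7, 770 regions (21.3%) were above, against a background of 21.9%, and 81 (2.24%) below, against 2.31%. With 75 bases added, 548 (15.2%) were above in H3K14ac, against 17.4%, and 463 (12.8%) in KAT7, against 13.7%, while 202 (5.59%) and 137 (3.79%) were below, against 5.86% and 3.93%. In the middle band of 467 regions, 113 (24.2%) were above in H3K14ac, against 31.6%, and 108 (23.1%) in KAT7, against 27.9%, with 6 (1.28%) and 2 (0.428%) below, against 3.51% and 1.88%.

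Of the 2685 short regions, 762 (28.4%) were above their host in H3K14ac, against 34.7%, and 973 (36.2%) in KAT7, against 34.8%, with 34 (1.27%) and 5 (0.186%) below, against 1.45% and 0.528%. With 75 bases added, 129 (4.80%) were above in H3K14ac, against 10.4%, and 207 (7.71%) in KAT7, against 9.17%, while 181 (6.74%) and 48 (1.79%) were below, against 7.77% and 5.26%. The shares of called regions lay near or under the background in each band. That background includes the regions themselves, which were 3616 of the 4812 above 700 bases, so closeness there is partly built in. Of the 22528 short background regions, 8918 were distal IS regions and 9351 IS regions near a start. These IS regions averaged 119.6 and 123.7 bases against 151, so reads crossing an edge would, if counted in full, raise them more.

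**Figure D3:**
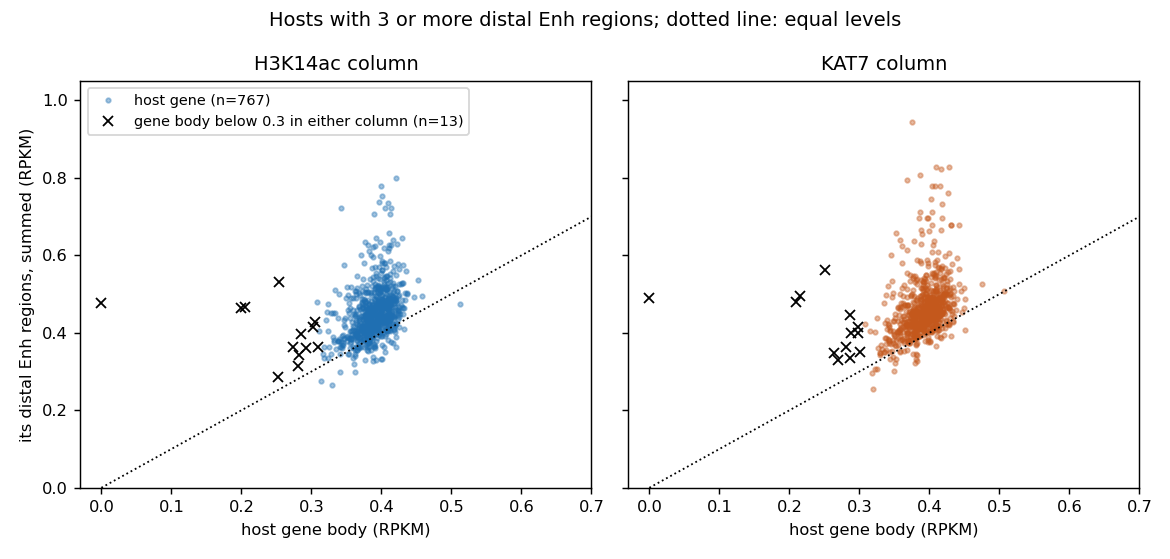
Summed level of the distal Enh regions of a host (vertical axis, RPKM) against the level of its gene body (horizontal axis, RPKM) for 780 hosts with 3 or more regions and no overlapping body, H3K14ac left and KAT7 right. Crosses are the 13 hosts with a gene body below 0.3 RPKM in either column, which lie at the left edge of the cloud or beyond it, and the dotted line marks equal levels.

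Among 780 hosts with at least 3 regions, 13 had a gene body below 0.3 RPKM in either column, a limit chosen after the values were seen. The body of Ipcef1 was listed at 0 in both columns although its 3 regions had 0.476 and 0.490 RPKM. Cdh22, a cadherin gene, had a body level of 0.200 RPKM for H3K14ac while its 9 regions had 0.465, and Gas7 had 0.205 against 0.467. Another entry of the table over 99.6% of the Cdh22 body, from the class named Pseudogenes, had 0.374 RPKM, and one over 96.1% of the Gas7 body had 0.407. For Srrm4 the entry over the same bases was itself low, at 0.291 RPKM against 0.252 for the body. Host ratios of these 13 genes were left out of the ranking below, and leaving out all 30 hosts under the limit moved the overall ratios to 1.13 for H3K14ac and 1.14 for KAT7.

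Over the 767 other hosts, the median ratio of the summed regions to their own body was 1.13 for H3K14ac and 1.14 for KAT7, and 1.03 and 1.05 with 75 bases added. The interval lay above the body in 412 hosts (53.7%) for H3K14ac and 438 (57.1%) for KAT7, and with 75 bases added in 20.9% and 21% of these hosts. It lay below the body in 3 hosts for H3K14ac and 1 for KAT7, and with 75 bases added in 34 (4.43%) and 15 (1.96%). The largest H3K14ac excess was in Map4, a microtubule-associated protein gene, at 0.722 RPKM over a body of 0.342, or 2.11 times with a lower bound of 1.91, and its KAT7 excess was 1.47 times. Of the 385 H3K14ac reads in its 4 regions, 348 lay in EN24449, which holds a RefSeq start of Map4. Jmjd1c, a member of the Jumonji demethylase family, followed at 1.95 times, then Ptprz1, a receptor tyrosine phosphatase of radial glia and the only one of the first 10 in the Top expression class, at 1.90 times. Mitf, a transcription factor of pigment cells, had 1.80 times, Hivep2 1.56 and Hdac4, a histone deacetylase, 1.88. The others of the first 10 by lower bound were D630003M21Rik, Samd4, Thada and Csmd2, at 1.51 to 1.65 times. With 75 bases added these 10 ratios ranged from 1.25 in Hdac4 to 1.96 in Map4, and the intervals of Ptprz1 (0.943 to 1.67), Mitf (0.993 to 1.59) and Hdac4 (0.923 to 1.66) then included 1.

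For KAT7 the ranking was led by hosts whose regions were all or nearly all short, and most hosts in the H3K14ac list also held mainly short regions. Kank1 had 0.944 RPKM over a body of 0.375 in 3 regions, 2.52 times, against 1.28 times in H3K14ac. Mapkap1, a subunit of the mTORC2 complex, had 1.98 times in 7 regions, Nrap, a muscle gene, 2.09 times in 4, and Speg, a kinase gene of muscle, 2.16 times in 3. Mtus2, Thsd7a, Crim1, D630003M21Rik, Ptprz1 and Mettl8 followed at 1.74 to 2.02 times. Ptprz1 and D630003M21Rik were thus in both lists of 10, and in the KAT7 list the ratios with 75 bases added were 1.29 to 1.68, with intervals that included 1 in Ptprz1 (0.959 to 1.70) and Mettl8 (0.945 to 1.71).

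Regions in highly expressed hosts had higher levels than those in weakly expressed hosts, and of the 3 length bands only that above 700 bases had both intervals above 1. The table marks the expression class of a gene body as Top, Bottom or Other, with 990 bodies each in Top and Bottom on autosomes. There were 269 regions in 78 Top hosts (7.88% of Top bodies), 156 in 82 Bottom hosts (8.28%) and 8867 in 2646 Other hosts (14.8%). The H3K14ac level was 0.453 RPKM in Top, 0.439 in Other and 0.391 in Bottom, and the KAT7 level 0.474, 0.446 and 0.402 RPKM. The Top over Bottom ratio was 1.16 (1.13 to 1.19) for H3K14ac and 1.18 (1.15 to 1.21) for KAT7. Above 700 bases it was 1.22 (1.19 to 1.26) and 1.23 (1.19 to 1.26). In the short regions the H3K14ac ratio was 0.976 (0.891 to 1.07) and the KAT7 ratio 1.10 (1.01 to 1.21), and in the middle band 0.978 (0.861 to 1.11) and 1.19 (1.04 to 1.35). The classes also differed in length, since 27.9% of the Top regions and 47.4% of the Bottom regions were short.

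With every host gene counted equally, the H3K14ac ratio was 0.991 and the KAT7 ratio 1.05. Within the regions above 700 bases, the same equal weighting gave 1.14 and 1.18, an alternative chosen after seeing the data. The median host above 700 bases had 0.443 RPKM of H3K14ac in Top (quartiles 0.394 and 0.483, 66 hosts) and 0.381 in Bottom (0.339 and 0.424, 48 hosts). For KAT7 the host medians were 0.468 (0.424 and 0.504) and 0.391 (0.349 and 0.438). The ranges overlapped, from 0.205 to 0.598 in Top and 0.269 to 0.498 in Bottom for H3K14ac, so single hosts of the classes were not apart.

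**Figure D4:**
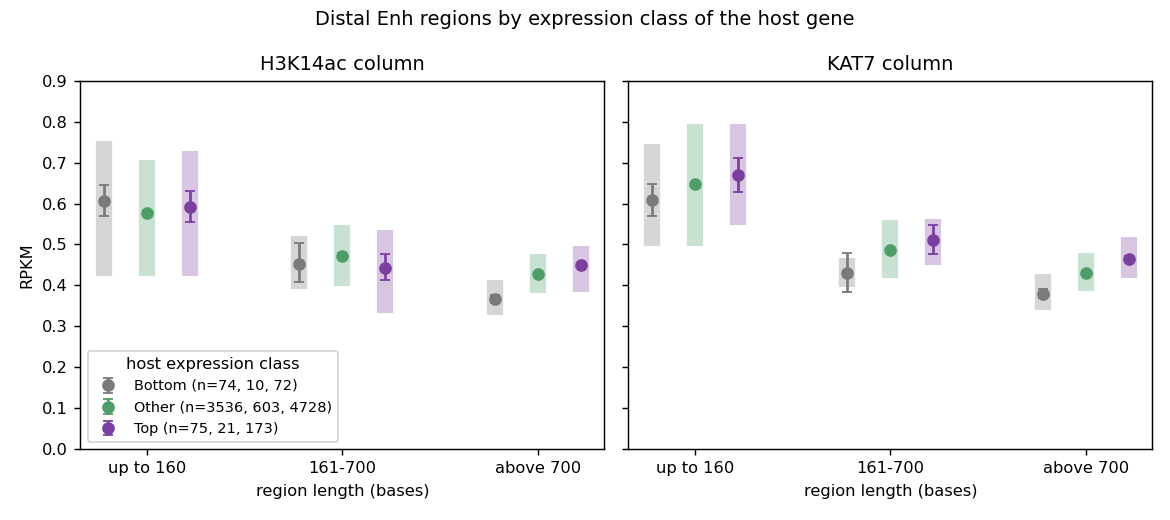
RPKM (vertical axis) of the regions in 3 length bands (horizontal axis) by expression class of the host, H3K14ac left and KAT7 right. Points are summed levels with 95% counting intervals and pale bars the lower to upper quartile of regions; above 700 bases the order is Bottom 0.366, Other 0.429 and Top 0.449 RPKM for H3K14ac, while in the short regions the H3K14ac intervals of Bottom and Top overlap.

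The hosts themselves followed the same order with a smaller step in H3K14ac, with Top over Bottom at 1.07 for H3K14ac and 1.14 for KAT7 over 62 and 71 host bodies without overlap. Regions above 700 bases in Top hosts had 1.15 times their host's H3K14ac level (1.13 to 1.17) and 1.10 times its KAT7 level (1.08 to 1.12). In Bottom hosts they had 0.999 times (0.971 to 1.03) in H3K14ac and 1.06 times (1.03 to 1.09) in KAT7. The H3K14ac intervals of the classes did not overlap, whereas the KAT7 intervals did. In the short regions the order was the other way. Top hosts had 1.53 times (1.43 to 1.65) and Bottom hosts 1.63 times (1.52 to 1.76) in H3K14ac. For KAT7 they had 1.54 (1.44 to 1.65) and 1.71 times (1.58 to 1.84), and the intervals overlapped in both columns. Over all lengths Top and Bottom had 1.16 and 1.06 times in H3K14ac, and 1.12 times each in KAT7. Of the 57 Bottom regions above 700 bases, 5 (8.77%) lay above and 5 below their host in H3K14ac, against the 24.9% and 3.12% of all such regions given above, and of the 121 Top regions 36 (29.8%) lay above and 4 below.

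The Top host with most regions was Exoc4, a subunit of the exocyst, with 21 regions at 0.456 RPKM (H3K14ac) and 0.451 RPKM (KAT7), and that with most reads was Tcf4, a basic helix-loop-helix factor of neural progenitors, whose 20 regions had 0.401 RPKM (0.386 to 0.416) of H3K14ac and 0.466 RPKM (0.449 to 0.483) of KAT7. Septin9 had 11 regions at 0.573 RPKM of H3K14ac (0.548 to 0.599) over a body of 0.418, and 0.521 RPKM of KAT7. Fyn, a tyrosine kinase, had 12 regions at 0.492 and 0.495 RPKM. Among Bottom hosts, Asic2, an acid-sensing ion channel gene, had 15 regions at 0.348 (0.322 to 0.375) and 0.379 RPKM, Efcab6 had 6 at 0.373 and 0.350, and Lrfn2 had 4 at 0.275 (0.243 to 0.309) and 0.306 RPKM. Lhcgr, the luteinizing hormone receptor gene, had 5 regions, all short, at 0.621 (0.480 to 0.790) and 0.656 RPKM. These hosts were named after their values were seen. Without Tcf4 the Top over Bottom ratio was 1.18 in both columns, and without Asic2 it was 1.14 (1.11 to 1.18) in the H3K14ac column and 1.17 in the KAT7 column.

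The 4 regions above 5 RPKM were kept out of these values. Of these, EN29851, EN33350 and EN35090 lay in one Top gene with the identifier 100861531 on chromosome 17, between 39843095 and 39846630, and had 17.8 to 31.8 RPKM of H3K14ac and 27.8 to 48.5 RPKM of KAT7 over a body of 6.81 and 9.07 RPKM. The body of that gene was thus itself high, against medians of 0.388 and 0.396 RPKM over the host bodies without overlap. Why was not tested. With these regions included, the Top over Bottom ratio was 1.76 for H3K14ac and 1.91 for KAT7. The other, EN11608 (chr2:5379240-5379390) in Camk1d, a calmodulin-dependent kinase gene, had 130 H3K14ac reads (6.11 RPKM) and 243 KAT7 reads (12.1 RPKM) over a body of 0.408 and 0.401 RPKM. The 3 regions under 0.1 RPKM lay in Basp1, Celf4 and Cdyl and were all short, with 0 to 2 H3K14ac and 1 to 4 KAT7 reads.

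Regions inside genes differed little from those outside. The inside over outside ratio was 1.007 (1.003 to 1.011) for H3K14ac and 1.02 (1.02 to 1.03) for KAT7. Above 700 bases it was 1.02 (1.01 to 1.02) and 1.04 (1.03 to 1.04), and in the short regions 0.994 (0.982 to 1.006) and 1.03 (1.02 to 1.04). The KAT7 to H3K14ac ratio was 1.016 (1.012 to 1.019) inside and 0.999 (0.995 to 1.003) outside. Inside genes it was 1.12 (1.10 to 1.13) in the short regions, 1.03 (1.01 to 1.05) in the middle band and 1.006 (1.002 to 1.010) above 700 bases. In Top hosts above 700 bases it was 1.04 (1.02 to 1.06), in Bottom hosts 1.04 (0.9996 to 1.08) and in Other hosts 1.004 (0.9999 to 1.008).

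Levels near and far from the host start were close. Regions up to 50000 bases from the start (2991) had 0.996 times the H3K14ac level of the 2135 regions more than 200000 bases away (0.989 to 1.003) and 0.998 times their KAT7 level (0.991 to 1.005). Above 700 bases both ratios were 1.01 (1.002 to 1.018), and in the short regions the H3K14ac ratio was 0.945 (0.922 to 0.969) and the KAT7 ratio 1.01 (0.990 to 1.04). Against their own hosts, near regions above 700 bases had 1.12 times the H3K14ac level (1.12 to 1.13) and far ones 1.08 times (1.07 to 1.09), and for KAT7 1.11 and 1.09 times. In the short regions near and far had 1.47 (1.44 to 1.50) and 1.51 times (1.47 to 1.54) in H3K14ac, the other order. For KAT7 they had 1.69 (1.66 to 1.72) and 1.65 times (1.61 to 1.69). By the number of regions in a host, the levels were close in H3K14ac and differed more in KAT7. Above 700 bases, regions alone in their host had 0.432 RPKM of H3K14ac (0.429 to 0.436) and 0.441 of KAT7 (0.437 to 0.445). Those in hosts with 10 or more had 0.429 (0.427 to 0.431) and 0.426 (0.424 to 0.428). In the short regions the H3K14ac levels were 0.562 (0.548 to 0.577) alone and 0.580 (0.570 to 0.590) with 10 or more. The KAT7 levels there were 0.668 (0.652 to 0.685) and 0.636 (0.625 to 0.647). In both bands only the KAT7 intervals were apart.

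Features that the choice of regions did not use came with larger differences in some bands. Above 700 bases, the 183 regions with a RefSeq start of their host had 1.02 times the H3K14ac (1.01 to 1.04) and 1.05 times the KAT7 level (1.04 to 1.06) of the others, and 1.17 and 1.15 times the level of their hosts. The 73 regions with a start of another gene only had 0.941 times (0.922 to 0.962) in H3K14ac and 0.971 times (0.951 to 0.992) in KAT7. Entries of the class CpG far from TSS overlapped 283 regions (3.05%). Among short regions, the 58 with such an overlap had 0.801 times the H3K14ac level of the others (0.737 to 0.870) but 0.993 times the KAT7 level (0.923 to 1.07), and above 700 bases the 212 had 0.959 (0.947 to 0.971) and 1.03 times (1.02 to 1.05). In both bands KAT7 exceeded H3K14ac in these regions, by 1.38 times (1.24 to 1.54) and 1.08 times (1.06 to 1.10).

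Overlap with a distal IS region, found in 689 regions (7.41%), went with a lower level in both columns: 0.849 (0.790 to 0.911) and 0.869 times (0.811 to 0.929) in the short regions, and 0.959 and 0.965 times above 700 bases. In the longer band the regions with the overlap had a median length of 1752 bases against 1333 for the others, and against their own hosts the levels were close, at 1.103 and 1.109 times in H3K14ac and 1.092 and 1.101 times in KAT7. Overlap with the table's H3K9me3 domains, a mark of silent chromatin, gave ratios of 0.968 to 1.01 for the first set (532 regions) and the second (262 regions) over both columns and bands, and each interval included 1.

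**Figure D5:**
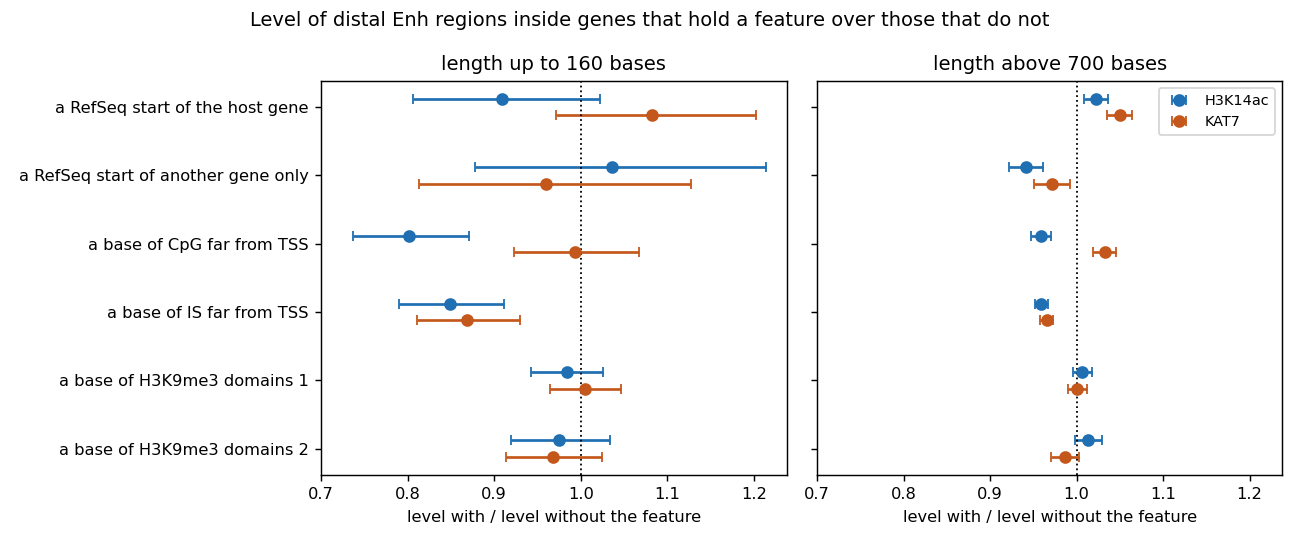
Ratio of the level of regions with a feature to that of regions without it (horizontal axis), by feature (vertical axis), for short regions left and regions above 700 bases right, with 95% counting intervals and a dotted line at equality. The H3K14ac points for CpG overlap lie at 0.801 and 0.959 and the KAT7 points at 0.993 and 1.03.

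The hosts with most regions included genes of neural development and neuronal contact. Auts2, a nuclear protein gene linked to neurodevelopment, held 72 regions, 32 of them short, over a body of 1104662 bases, at 0.400 RPKM (0.388 to 0.413) for H3K14ac and 0.404 (0.391 to 0.417) for KAT7. Tenm4, a teneurin adhesion protein, held 42 at 0.411 and 0.409 RPKM, and Msi2, a Musashi RNA-binding protein, 42 at 0.475 (0.459 to 0.491) and 0.464 RPKM. Ttc28 held 37 at 0.417 and 0.422 RPKM. Nfia, a nuclear factor I gene of gliogenesis, held 28 at 0.447 (0.432 to 0.462) and 0.479 RPKM (0.463 to 0.495). Msra held 26, Camta1 25, and Celf4 and Ptprn2 24 each, from 0.394 RPKM in Camta1 to 0.478 in Ptprn2 for H3K14ac. Of the hosts named here, only Nfia had a KAT7 to H3K14ac interval above 1, at 1.07 (1.02 to 1.12), and none had one below.

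The neural gene lists held more regions per host than the average host, at median levels close to those of all regions. Of 45 genes in the neural transcription factor list with an autosomal gene body, 26 held 325 regions, 12.5 per host against 3.31 over all hosts. Auts2, a nuclear protein gene that the list includes, held 72 of the 325. The list's regions above 700 bases had median levels of 0.422 (H3K14ac) and 0.424 RPKM (KAT7), against 0.426 and 0.431 over all regions. Besides Auts2 and Nfia, its hosts included Tcf4 (20) and Prdm16 (17), a zinc-finger gene of radial glia, at 0.387 and 0.390 RPKM. Of 39 neuronal adhesion and synapse genes, 34 held 314 regions, 9.24 per host, with medians of 0.425 and 0.428 RPKM above 700 bases. Tenm4 was followed by Dscam (23 regions, 0.481 and 0.440 RPKM), Tenm2 (22, 0.376 and 0.420) and Ntm (18, 0.521 and 0.455), adhesion genes. In the short regions the medians of this list were 0.659 and 0.696 RPKM, against 0.564 and 0.646 over all regions.

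Radial glia and neurosphere genes gave 16 hosts of 35 and 105 regions, with medians of 0.447 and 0.443 RPKM above 700 bases, most in Cdh4 (19), Pard3 (18), Dclk1 (14) and Gpm6a (11). Of 9 genes for subunits of KAT7 complexes, Jade1 and Jade2 held 1 region each: that of Jade1 had 0.375 RPKM of H3K14ac (0.287 to 0.480) and 0.555 of KAT7 (0.445 to 0.685), and that of Jade2 had 0.611 and 0.497 RPKM. Among genes of other tissues, the hosts were 7 of 20 muscle genes with 16 regions (most in Ryr1, 5, and Dysf, 3), 7 of 19 blood and endothelial genes with 12 (Runx1 and Pecam1, 3 each), and 1 of 19 liver and gut genes, Cyp7b1, with 3. None of 19 housekeeping genes held a region. No test was made of these differences, and the lists differ in gene length.

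The highest single regions in each column were all short. The 12 regions with the highest lower bound of H3K14ac had 27 to 33 reads and 1.27 to 1.55 RPKM. Their KAT7 levels, which the ranking did not use, had a median of 0.696 RPKM against 0.646 for all short regions, with 7 above that value, 3 equal and 2 below. The first was EN33379 in Jmjd1c (chr10:67186540-67186690), with 33 H3K14ac reads, 1.55 RPKM (1.07 to 2.18), and 24 KAT7 reads, 1.19 RPKM (0.764 to 1.78), over a body of 0.399 and 0.442 RPKM. The others lay in Abcc4, Arhgef10, Ssbp3, Lypd6b, Iqsec1, Rab2a, Dscam, Chia1, Sv2b, Ninj2 and Frmd4b.

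The 12 regions with the highest lower bound of KAT7 had 26 to 33 reads and 1.29 to 1.64 RPKM, and an H3K14ac median of 0.682 RPKM against 0.564 for all short regions, with 8 above it and 4 below. No region was in both lists. Unrelated columns would rarely share a region in lists of 12 out of 9292, so this does not set the columns apart. EN19923 in Lrmda (chr14:22965340-22965490) was first, with 33 KAT7 reads, 1.64 RPKM (1.13 to 2.30), and 15 H3K14ac reads, 0.706 RPKM. EN8986 in Tnfrsf21, the death receptor 6 gene (chr17:43077180-43077330), had 30 KAT7 reads and 6 H3K14ac reads. Others lay in Fan1, Nrap, Zbtb46, Samd5, Eef2k, Cdhr3, Reck, Dab1 and Evc2.

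Longer regions gave narrower intervals. Above 700 bases, the 6 highest lower bounds of H3K14ac, picked after the values were seen, were in Sergef, Ptpa, Map4, Septin9, Spsb4 and Cdkal1, at 0.741 to 0.815 RPKM against hosts at 0.342 to 0.425 RPKM. Those of Ptpa, Map4 and Septin9 hold a RefSeq start of the host. The region of Sergef (EN25755, chr7:46601258-46603500, 2243 bases) had 254 H3K14ac reads, 0.799 RPKM (0.704 to 0.904), and 119 KAT7 reads, 0.396 RPKM (0.328 to 0.474), the latter close to its host at 0.401 RPKM. The 6 for KAT7 were in Ahdc1, Tmcc1, Pde4b, Vps50, Dleu2 and Map4k4, at 0.726 to 0.928 RPKM. The region of Ahdc1 (EN32114, chr4:133038843-133039839) had 124 KAT7 reads, 0.928 RPKM (0.772 to 1.11), and 87 H3K14ac reads, 0.616 RPKM (0.494 to 0.760). Again no region was among both 6, which lists of this size out of 4973 regions would rarely share even if the columns were unrelated.

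The KAT7 to H3K14ac interval lay above 1 in 498 regions (5.36%) and below 1 in 331 (3.56%), against 6.61% and 4.22% of all Enh and IS regions. That background was not matched for length or for lying inside genes. The share above 1 was 5.16% in the short regions and 5.53% above 700 bases, and the share below 1 was 1.68% and 5.05%. Short regions held fewer reads, which widens their intervals, so these shares reflect depth as well as level. Of the 8 with the highest lower bound, 7 were short, in Rapgef5, Akap13, Speg, Tnfrsf21, Nek9, Casz1 and Kbtbd11, where 0 to 6 H3K14ac reads stood against 11 to 30 KAT7 reads. The exception was EN26121 in Tnpo1, a nuclear import receptor gene (chr13:98890058-98891263, 1206 bases), with 35 H3K14ac reads, 0.205 RPKM (0.143 to 0.285), and 101 KAT7 reads, 0.625 RPKM (0.509 to 0.759), a ratio of 3.05 (2.06 to 4.62). Of the 8 with the lowest upper bound, 6 were short, in Map3k7cl, Vps41, Iqsec1, Syn3, Tmem163 and Tmem196. The others were the Sergef region, at 0.495 (0.395 to 0.618), and EN7167 in Chic2 (chr5:75012762-75013219, 458 bases), with 48 H3K14ac and 15 KAT7 reads, at 0.330 (0.172 to 0.600).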

How the data were processed

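Per the labels, libraries were prepared with an Illumina TruSeq kit and sequenced on a NextSeq. The submitters' processing notes name Bowtie2, SAMtools, Picard, deepTools, featureCounts and the mm10 build, without versions. The deposited table gives, for each region, a read count and the RPKM that the authors derived from it in merged H3K14ac and HBO1 columns. Every RPKM followed from the deposited count, the length less 1 and the column total. Their names carry SC.gc, a term left unexplained in the labels.

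The regions and gene lists were chosen with earlier results of these data known. Levels are summed reads over summed length. Intervals are exact Poisson, and for ratios Clopper-Pearson, at 95%, computed with Python 3.11.15, pandas 2.3.3 and scipy 1.17.1. They were tested on simulated Poisson counts, which lack the extra spread seen in the short regions. The columns are merged over libraries, so no test over replicates was possible. Regions above 5 RPKM or below a mean of 0.1 were left out. Named regions were the 12 with the highest lower bound per column and the 8 at each end of the ratio, and named hosts the 10 with most regions and the 10 with the highest lower bound over their own body among those with 3 or more regions; some of these are not reported here. Alternatives were median levels, equal weight per host, each limit removed, 75 or 200 bases added to lengths, single length bands, and hosts left out. Of the 2806 hosts, 7 had no symbol in the RefSeq table (GRCm38.p6).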

Additional observations from a re-analysis of the deposited data

How the results depend on the processing

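No paired analysis was possible because each deposited column holds 1 merged value and carries no replicate number. Across 140 alternative values of 11 results, 103 kept their direction and call, or lay inside the main interval where they had none of their own. Another 12, medians or equal weights without an interval, kept the direction but lay outside the main interval. In 23 the direction reversed, in 1 the interval newly excluded 1 and in 1 it newly included 1. The 103 include settings that left the compared regions unchanged and so could not differ. These were keeping regions that share bases, a limit of 10000 bases from the host start and, against the host, keeping regions with several hosts. Where an alternative was not among the 103, the cause was not tested. Adding bases changed only the assumed length, and no reads were counted again. For Top over Bottom hosts, the H3K14ac ratio of 1.16 was 0.991 with equal weight per host, 0.976 in the short regions and 0.978 in the middle band (above 160 and up to 700 bases), and 1.09 by medians; the KAT7 ratio of 1.18 was 1.11 by medians and 1.05 with equal weight. The H3K14ac ratio of the shortest to the longest band, 1.35, was 1.32 by medians, 0.941 with 75 bases added and 0.649 with 200, and the KAT7 ratio of 1.50 was 0.721 with 200. Against the host, H3K14ac (1.14) was 1.17 by medians, 1.24 with equal weight, 0.940 with 200 bases added and 0.993 up to 160 bases with 75 added, and KAT7 (1.14) was 1.20 by medians, 1.30 with equal weight and, with 200 bases added, 0.943. Inside over outside, H3K14ac (1.007) was 0.989 by medians, 0.994 up to 160 bases and 1.01 in the middle band, where the interval included 1. Near over far from the host start, H3K14ac (0.996) was 0.969 by medians, 1.05 without the upper limit, 1.01 with equal weight, 1.01 and 1.03 with 75 and 200 bases added, 0.945 up to 160 bases, 1.01 in the middle band and 1.01 above 700 bases. KAT7 (0.998) was 0.972 by medians, 1.07 without the upper limit, 1.04 with equal weight, 1.01 and 1.03 with bases added, 1.01 up to 160 and 1.01 above 700 bases. The KAT7 to H3K14ac ratio of 1.02 was 1.04 by medians and 1.07 with equal weight. Leaving out regions that hold a RefSeq start changed none of these calls; that alternative, the low-body limit, the bands for distance, column ratio and 75 added bases, and equal weight per host above 700 bases were chosen after seeing the data. Bands within 10000 bases of the start held no region. Depth limits the single short regions, which held a median of 12 and 13 reads.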
